A study of Mus musculus with 12 samples.

Results

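CpG-B is a class of synthetic oligodeoxynucleotide, a linear single strand with unmethylated CpG motifs on a phosphorothioate backbone, and its effect on mouse plasmacytoid dendritic cells was read from RNA-seq. The comparison set 3 libraries of cells given CpG-B against 3 control libraries, 6 of the 12 libraries of the series. All cells came from BALB/c bone marrow, taken on postnatal days 56 to 63. CpG-B was given at 0.5 µM for 24 h; the control group is labelled only as control, and the series' design text describes it as cells not stimulated with a CpG oligodeoxynucleotide. The other 6 libraries came from cells given CpG-A or CpG-C at the same dose and time. Cells were sorted before RNA extraction, but the labels give neither the gate nor whether sorting came before or after culture. They do not say whether replicates came from separate mice or cultures, so p-values measure only the spread between samples, which may be technical.

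The values were FPKM (fragments per kilobase of transcript, scaled by library size), a level corrected for transcript length and library size. Of 21573 genes in the deposited table, 11641 reached 1 FPKM in at least 3 of the 12 libraries and were tested on log2(FPKM + 1). A log2 difference is the CpG-B mean minus the control mean on that scale, which understates the change of genes with low levels. A gene was called, and is said below to have risen or fallen, at an adjusted p under 0.05 in limma with Benjamini-Hochberg adjustment over all tested genes. Values of 3 libraries are given in the order of replicates 1, 2 and 3, and a library is named by its group and replicate, as in CpG-B 1.

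Plasmacytoid dendritic cells take up DNA into endosomes, where TLR9 binds unmethylated CpG and signals through the adaptor MyD88. A first branch activates IRF7 and type I interferon genes; another activates NF-kB and the genes of cytokines, chemokines and co-stimulatory molecules. CpG-B is known mainly for the NF-kB branch and for strong activation of B cells, whereas CpG-A is known for high interferon-alpha output. Resting plasmacytoid cells are recognised by Siglec-H, Bst2, Ly6c2 and Ccr9, and their identity depends on the E protein Tcf4 with Spib, Irf8, Runx2 and Bcl11a.

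Between 8778 and 10506 genes reached 1 FPKM in the CpG-B libraries, and between 8516 and 10622 in the control libraries. The mean correlation of a library's log2 values with the others of its group ran from 0.837 to 0.864 for CpG-B and from 0.763 to 0.81 for control. The files hold no read counts; from the spacing of low values the depth was put, roughly, at 23900000 to 26000000 fragments per CpG-B library and 23000000 to 24600000 per control library. The label was checked against the levels of defining genes. Siglech had 104, 253 and 230.1 FPKM with CpG-B, against 2144, 3241 and 2777 FPKM in control, and Bst2 had 423, 184 and 497 FPKM with CpG-B, against 532, 170 and 563 FPKM in control. Both were present in all 6 libraries. Csf1r and Adgre1, defining genes of macrophages, were under 1 FPKM in every one of them, but some other monocyte and macrophage markers were not. Cd14 had 8.85, 0.05 and 0.26 FPKM with CpG-B, against 30.5, 5.57 and 15.4 FPKM in control. C1qb had 1.32, 0 and 20.7 FPKM with CpG-B, against 0.24, 0 and 0 FPKM in control. Lyz2 had 3.28 FPKM in CpG-B 3, and Fcgr1 had 2.87 FPKM in CpG-B 2 and 2.25 FPKM in CpG-B 3. Cd68, given below, was above 1 FPKM in all 6. For other cell types the markers were also mixed. Of 10 markers of conventional dendritic cells, Zbtb46 and Xcr1 were under 1 FPKM in all 6 libraries, but Clec9a had 38.3, 33.6 and 14.4 FPKM with CpG-B, against 130.2, 30.1 and 32.5 FPKM in control, and Itgax had 34.9, 74.3 and 44.7 FPKM with CpG-B, against 19.2, 30 and 64.5 FPKM in control. Of 7 T cell markers only Cd3e was under 1 FPKM in all 6; Cd3d had 7.66, 0.03 and 27 FPKM with CpG-B, against 0.07, 8.78 and 14.8 FPKM in control, Cd3g had 1.01, 0 and 40.9 FPKM with CpG-B, against 0, 0 and 8.08 FPKM in control, and Lck had 9.81, 3.34 and 11 FPKM with CpG-B, against 26.8, 0.04 and 12.8 FPKM in control. Cd3d and Cd3g were highest in CpG-B 3.

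After 24 h with CpG-B, the cells carried far more RNA for chemokines, cytokines, interferon-stimulated genes and co-stimulatory molecules, and far less RNA for many surface receptors and transcription factors of plasmacytoid cells. Of the 11641 tested genes, 669 (5.75%) were called, 380 (3.26%) higher and 289 (2.48%) lower with CpG-B. Of those called, 46 of the higher genes were listed at 0 in all control libraries and 7 of the lower genes at 0 in all CpG-B libraries. For 2991 genes (25.7%) the CpG-B and control libraries did not overlap, and 668 of the 669 called genes were among them. The split between directions depended on scaling: 56.8% of called genes were higher as deposited, 69.7% with median-of-ratios scaling and 71.3% with upper quartile scaling, which moved the median log2 difference of all genes, -0.25 as deposited, upward by 0.255 and 0.283. Leaving out 1 library gave 389 to 577 calls: 389 when it was control 2, 395 for CpG-B 1 and 425 for CpG-B 2.

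**Figure D1:**
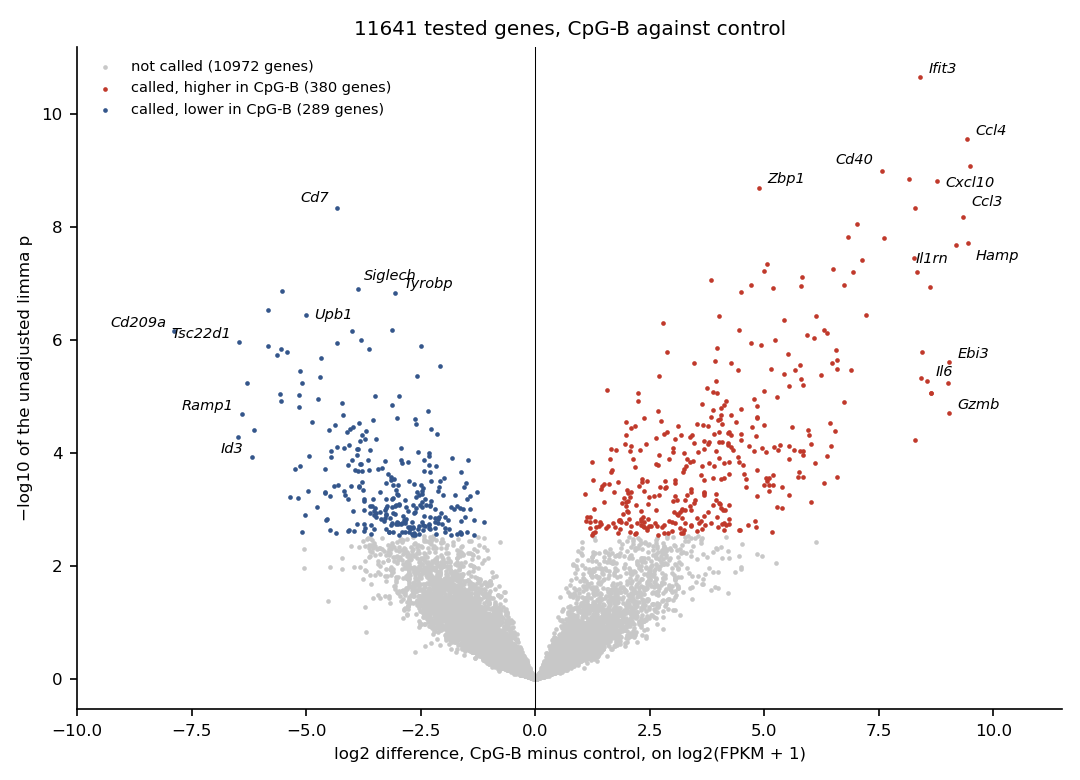
Each point is 1 of 11641 tested genes; the x axis is the log2 difference (CpG-B minus control on log2(FPKM + 1)) and the y axis is −log10 of the unadjusted limma p. Red points are the 380 genes called higher with CpG-B and blue points the 289 called lower; Ifit3 and Ccl4 stand highest among the rises and Cd7 among the falls.

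The 15 largest rises ran from 8.40 to 9.49 on the log2 scale. They were 3 chemokines (Ccl3, Ccl4, Ccl5) with the interferon-induced chemokine Cxcl10, the cytokine genes Il6, Il27, Ebi3 and Il1rn, the survival genes Bcl2a1a and Bcl2a1d, the protease gene Gzmb, the iron hormone gene Hamp, Wfdc21, and the interferon-stimulated genes Ifit3 and Ifitm1. The 15 largest falls ran from -5.42 to -7.88. They were the lectin gene Cd209a, the receptor genes Ramp1, Havcr1, Fcrla and Cd200r1, the adaptor gene Gapt, the regulators Tsc22d1 and Id3, the ion pump genes Atp1b1 and Atp2a1, the enzyme genes Rnase4, Pafah1b3 and Kynu, the leukotriene synthesis gene Alox5ap, and Arl5c. All 30 remained called when any 1 of the 6 libraries was left out. Of all 669 called genes only 302 did, 201 of the 380 higher and 101 of the 289 lower.

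**Figure D2:**
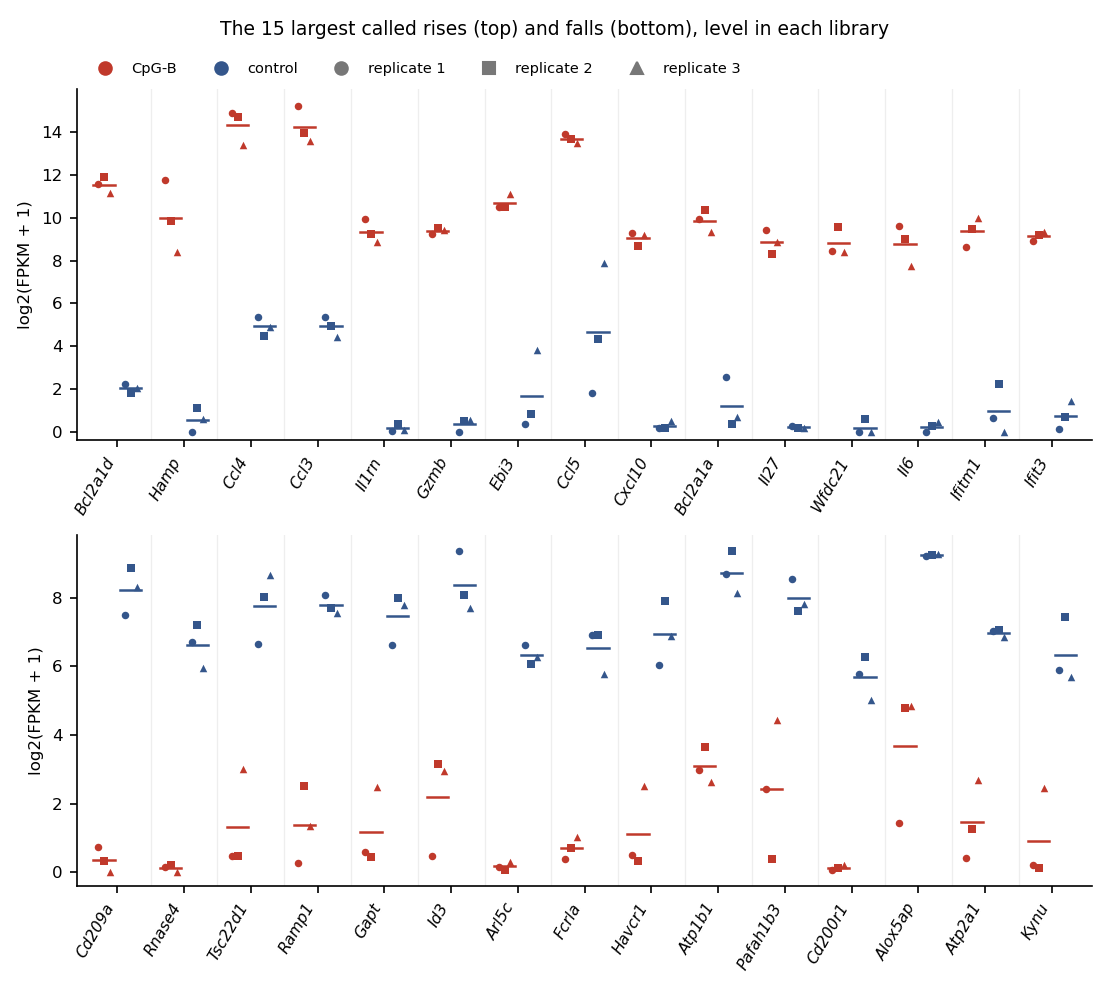
Levels on log2(FPKM + 1) of the 15 genes with the largest called rises (top) and falls (bottom); CpG-B libraries are red and stand left of the control libraries in blue, marker shape gives the replicate, and bars are group means. That the CpG-B and control libraries do not overlap was a condition for choosing the 30 genes.

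The gene lists were read by how many of their tested members were called. They were chosen with earlier results of these data known, so the shares describe the lists and do not test them. Over all tested genes 3.26% rose and 2.48% fell. The highest shares of rises were among interferon-stimulated genes, with 36 of 50, chemokines, with 5 of 9, cytokines, with 9 of 17, and co-stimulatory and maturation genes, with 10 of 19. The highest shares of falls were among plasmacytoid surface receptors, with 11 of 25, and plasmacytoid transcription factors, with 8 of 19. Several lists had few or no calls: none of 22 for glycolysis and hypoxia, none of 20 for interferon signalling components, and 1 in each direction of 84 for ribosomal proteins.

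**Figure D3:**
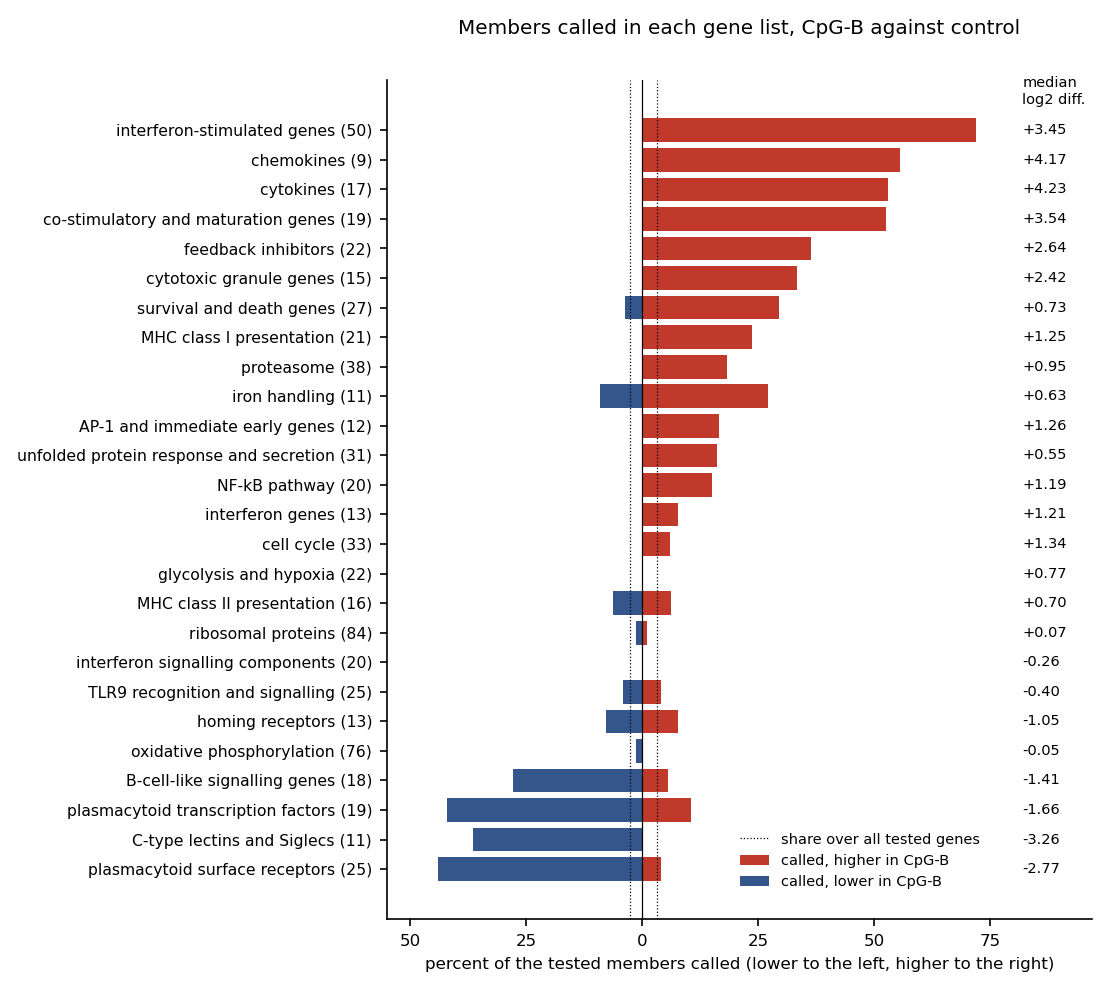
Percent of the tested members of each gene list called higher (red, to the right) or lower (blue, to the left) with CpG-B; the number tested is in parentheses, dotted lines mark 3.26% and 2.48% over all tested genes, and the median log2 difference of each list stands at the right. Interferon-stimulated genes lead the rises and plasmacytoid surface receptors the falls.

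The CC chemokine genes Ccl3, Ccl4 and Ccl5 were low in control and reached very high levels with CpG-B. Ccl3 (chr11:83647843-83649378 on GRCm38.p6), an inflammatory chemokine and ligand of CCR1, had 38541, 15924 and 12241 FPKM with CpG-B, against 40.9, 30.2 and 20.4 FPKM in control (log2 difference 9.33, SE 0.793, limma adjusted p = 7.59e-06). Ccl4, its neighbour and close relative, had 30345, 27196 and 10991 FPKM with CpG-B, against 39.8, 21.6 and 29.3 FPKM in control (log2 difference 9.42, SE 0.636, limma adjusted p = 1.6e-06). Ccl5, which attracts T cells, had 15333, 13247 and 11417 FPKM with CpG-B, against 2.47, 19.3 and 236 FPKM in control (log2 difference 9.02, SE 1.31, limma adjusted p = 0.000723). All CpG-B libraries lay above all control libraries for each of the 3 genes, and Ccl5 in control 3 was well above the other 2 controls. Together these 3 genes, summed after their values were seen, held 8.51%, 5.8% and 3.56% of all FPKM in the CpG-B libraries, against 0.00905%, 0.00819% and 0.033% in the control libraries. Cxcl10, which attracts CXCR3-bearing T and natural killer cells, had 631, 404 and 588 FPKM with CpG-B, against 0.13, 0.12 and 0.42 FPKM in control (log2 difference 8.77, SE 0.67, limma adjusted p = 2.97e-06). Its relative Cxcl11 was also called, with 11.1, 18.8 and 23.4 FPKM with CpG-B where control was listed at 0, but the call was lost without any 1 of the 6 libraries (adjusted p between 0.0783 and 0.116). The list had 5 of 9 tested members higher and none lower, with a median of 4.17 against -0.25 over all tested genes. Xcl1, which attracts XCR1-bearing dendritic cells, was not called, with 13.2, 345 and 147 FPKM with CpG-B, against 0, 14.9 and 10.6 FPKM in control.

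Among homing receptors, 1 of 13 rose and 1 fell. Ccr7, which guides dendritic cells to lymph nodes, had 292, 448 and 619 FPKM with CpG-B, against 18.5, 0.46 and 10.5 FPKM in control (log2 difference 5.98, SE 1.06, limma adjusted p = 0.00315). Every CpG-B library was above every control library. Ccr9, the gut-homing receptor of resting plasmacytoid cells, was lower in every CpG-B library but not called, with 55.3, 151 and 179 FPKM with CpG-B, against 212, 380.5 and 259 FPKM in control (log2 difference -1.26, SE 0.432, limma adjusted p = 0.115). With the replicate number as a block it was called lower (adjusted p = 0.0369). Cxcr3, the receptor for Cxcl10, was called lower, with 0.16, 0.08 and 1.86 FPKM with CpG-B, against 69.2, 28.1 and 69.1 FPKM in control (log2 difference -5.10, SE 1.41, limma adjusted p = 0.0459), and the call was lost without any 1 of the 6 libraries (adjusted p between 0.0776 and 0.139). It was also lost with upper quartile scaling (adjusted p = 0.0592). Leaving out the 4 libraries numbered 1 gave 3 lower calls in this list.

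Of 17 tested cytokine genes, 9 rose and none fell, with a median log2 difference of 4.23. Il6, the acute-phase cytokine, had 780.4, 509 and 216 FPKM with CpG-B, against 0, 0.2 and 0.38 FPKM in control (log2 difference 8.55, SE 1.23, limma adjusted p = 0.000687). It was highest in replicate 1 and lowest in replicate 3 of CpG-B, yet every CpG-B library was far above control. Both chains of interleukin 27 rose: Il27 (chr7:126589295-126594910 on GRCm38.p6) had 685, 312 and 461 FPKM with CpG-B, against 0.23, 0.14 and 0.13 FPKM in control (log2 difference 8.63, SE 1.3, limma adjusted p = 0.000997). Ebi3, the other chain, had 1442, 1455 and 2180.4 FPKM with CpG-B, against 0.29, 0.78 and 13 FPKM in control (log2 difference 9.03, SE 1.22, limma adjusted p = 0.000408). Their levels were close to 0 in control apart from Ebi3 in control 3. Of the chains of interleukin 12, only Il12b was called, with 65.6, 118 and 117 FPKM with CpG-B, against 0, 0.12 and 0.03 FPKM in control (log2 difference 6.54, SE 1.14, limma adjusted p = 0.00292). Il12a was not called, with 28.9, 4.25 and 20.2 FPKM with CpG-B, against 101, 22.9 and 40.1 FPKM in control (log2 difference -1.64, SE 1, limma adjusted p = 0.418), and the groups overlapped.

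Lta, the lymphotoxin gene next to Tnf, rose with 46.7, 188 and 756 FPKM with CpG-B, against 0.24, 0.49 and 1.17 FPKM in control (log2 difference 6.90, SE 0.962, limma adjusted p = 0.000506). Tnf was called, with 28.1, 63.6 and 231 FPKM with CpG-B, against 26.8, 0.21 and 0.98 FPKM in control (log2 difference 4.23, SE 1.01, limma adjusted p = 0.0221), but the call was lost without CpG-B 2 or 3 or control 2 or 3 (adjusted p between 0.0636 and 0.107). Both were highest in CpG-B 3, the opposite order to Il6, and control 1 had a Tnf level close to that of CpG-B 1. Spp1 (osteopontin) also rose, with 10.4, 121 and 50.7 FPKM with CpG-B, against 0.03, 0.19 and 1 FPKM in control (log2 difference 4.95, SE 0.92, limma adjusted p = 0.00442). Il1b, Il15 and Il18 were not called; Il15 had 0.72, 22.1 and 11.2 FPKM with CpG-B, against 0, 0 and 9.86 FPKM in control, and Il18 had 0.06, 61 and 7.42 FPKM with CpG-B, against 0, 0 and 8.17 FPKM in control, so that both rested on 2 of the CpG-B libraries and overlapped control 3.

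The anti-inflammatory cytokine genes on the list also rose. Il1rn (chr2:24336860-24351491 on GRCm38.p6), the interleukin 1 receptor antagonist, had 994, 605 and 469 FPKM with CpG-B, against 0.02, 0.29 and 0.08 FPKM in control (log2 difference 9.19, SE 0.851, limma adjusted p = 1.57e-05). Il10, which restrains antigen-presenting cells, had 123, 36.8 and 19.8 FPKM with CpG-B with each control library listed at 0 (limma adjusted p = 0.000319). In both genes CpG-B 1 was highest and replicate 3 lowest.

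Of 18 interferon genes in the table, 13 were tested, with a median log2 difference of 1.21. In 6 of the 13 every CpG-B library was above every control library, against 10.1% of all tested genes. Only 1 was called. That gene was Ifng, the type II interferon, with 315, 52.9 and 52 FPKM with CpG-B, against 0.14, 0.08 and 0.1 FPKM in control (log2 difference 6.45, SE 1.19, limma adjusted p = 0.00421). Replicate 1 of CpG-B was several times the other 2, and all controls were close to 0. Ifnb1 was not called although its libraries did not overlap, with 535, 119.7 and 104 FPKM with CpG-B, against 3.23, 1.54 and 0.87 FPKM in control (log2 difference 6.12, SE 1.78, limma adjusted p = 0.06). It was called when only the 6 libraries compared were fitted (adjusted p = 0.00261), with library weights (adjusted p = 0.0108) and with the replicate number as a block (adjusted p = 0.0119). Ifnl2, a type III interferon, was also not called, with 14.3, 24.2 and 37.3 FPKM with CpG-B, against 0.27, 0 and 0 FPKM in control (log2 difference 4.50, SE 1.53, limma adjusted p = 0.111); it was called when only the 6 libraries compared were fitted (adjusted p = 0.0149), with library weights (adjusted p = 0.0159) and without the 4 libraries numbered 1 (adjusted p = 0.025). The interferon-alpha genes were near 0 in most libraries: Ifna4 had 0, 7.18 and 0.12 FPKM with CpG-B, against 0, 0.08 and 0 FPKM in control, and Ifna2 had 0.19, 26.2 and 0.8 FPKM with CpG-B, against 0, 0 and 0 FPKM in control. Replicate 2 of CpG-B was the only library of the 6 with more than 1 FPKM of Ifna2 or Ifna4. Ifna9 had 0.09, 0.39 and 7.84 FPKM with CpG-B, against 0, 0.09 and 0 FPKM in control. These genes are near copies of each other, so reads may have been split among them. Without the 4 libraries numbered 1, 2 interferon genes were called higher.

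Interferon-stimulated genes, whose products block viral replication, rose as a group: 36 of 50 were called higher, none lower, with a median of 3.45, and 45 of 50 had every CpG-B library above every control library (10.1% of all tested genes did). Ifit3, which binds other IFIT proteins at foreign RNA, had 477, 588 and 651 FPKM with CpG-B, against 0.09, 0.6 and 1.74 FPKM in control (log2 difference 8.40, SE 0.473, limma adjusted p = 2.55e-07). Ifit1, which binds viral RNA caps, had 217, 355 and 319 FPKM with CpG-B, against 0.63, 0.32 and 7.03 FPKM in control (log2 difference 6.82, SE 0.617, limma adjusted p = 1.4e-05). Isg15, a ubiquitin-like modifier, had 130.4, 125 and 115 FPKM with CpG-B, against 0.21, 0.26 and 8.36 FPKM in control (log2 difference 5.68, SE 0.79, limma adjusted p = 0.000501). Levels were alike in the 3 CpG-B libraries, and control 3 was the highest control in all 3 genes. Zbp1, a sensor of Z-form nucleic acids, had 958, 970.2 and 1081 FPKM with CpG-B, against 37.8, 17.8 and 51.7 FPKM in control (log2 difference 4.89, SE 0.381, limma adjusted p = 3.29e-06). Rsad2 (viperin) had 39.9, 99.9 and 50.7 FPKM with CpG-B, against 0.06, 0.08 and 0.03 FPKM in control (log2 difference 5.82, SE 0.596, limma adjusted p = 3.82e-05). Gbp2, a guanylate-binding protein of cell-autonomous defence, had 200.1, 173 and 72.9 FPKM with CpG-B, against 0.12, 0.06 and 4.02 FPKM in control (log2 difference 6.24, SE 0.883, limma adjusted p = 0.000583).

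The highest level in the list was that of Ifitm3, an entry inhibitor of enveloped viruses, with 6769, 7658 and 7204 FPKM with CpG-B, against 403, 19.2 and 196 FPKM in control (log2 difference 5.94, SE 0.735, limma adjusted p = 0.000203). Usp18, which removes Isg15 and dampens the interferon receptor, had 415, 681 and 667 FPKM with CpG-B, against 13.3, 11.6 and 103 FPKM in control (log2 difference 4.43, SE 0.616, limma adjusted p = 0.000501). Irf9, a factor that carries the interferon signal, was not called, with 68.1, 53.3 and 61.8 FPKM with CpG-B, against 123, 43 and 116 FPKM in control. Irf7, the factor behind interferon-alpha genes, had 309, 341 and 749.7 FPKM with CpG-B, against 91.7, 35.4 and 283 FPKM in control (log2 difference 2.13, SE 0.615, limma adjusted p = 0.0583). It was called without control 3 (adjusted p = 0.00793) and under both scalings (adjusted p = 0.0242 and 0.0255). Irf7 was also called with library weights (adjusted p = 0.0399) and with the replicate number as a block (adjusted p = 0.00514). The other uncalled members included Trim30a, Samd9l, Oas2 and Eif2ak2, whose levels in control were already of the same order. Some members have close relatives (Ifit3 and Ifit3b, the Gbp and Ifi20x families), so single-gene values may share reads. Leaving out 1 library gave 30 to 35 higher calls on this list.

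The 250 bases before the transcription start of 5 of these risen genes are printed to show the interferon-stimulated response element in them. Capitals mark each match, on either strand, to the ISRE core, which is GAAA, any 2 bases and GAAA again; in Cxcl10 they also mark matches to the NF-kB consensus. Sequences are from RefSeq on GRCm38.p6, written on the gene's strand: Ifit1 at chr19:34640639-34640888 (plus strand), Ifit3 at chr19:34583279-34583528 (plus strand), Isg15 at chr4:156200819-156201068 (minus strand), Gbp2 at chr3:142620413-142620662 (plus strand) and Cxcl10 at chr5:92348890-92349139 (minus strand).
Ifit1: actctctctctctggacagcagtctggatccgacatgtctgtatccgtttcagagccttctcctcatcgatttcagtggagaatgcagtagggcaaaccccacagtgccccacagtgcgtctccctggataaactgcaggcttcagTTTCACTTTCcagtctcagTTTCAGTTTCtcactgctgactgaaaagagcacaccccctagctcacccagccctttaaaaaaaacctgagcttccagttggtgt
Ifit3: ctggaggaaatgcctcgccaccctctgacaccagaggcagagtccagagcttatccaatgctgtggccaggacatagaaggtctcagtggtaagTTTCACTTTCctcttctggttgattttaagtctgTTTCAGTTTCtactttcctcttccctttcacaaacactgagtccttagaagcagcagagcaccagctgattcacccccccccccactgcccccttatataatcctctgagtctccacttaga
Isg15: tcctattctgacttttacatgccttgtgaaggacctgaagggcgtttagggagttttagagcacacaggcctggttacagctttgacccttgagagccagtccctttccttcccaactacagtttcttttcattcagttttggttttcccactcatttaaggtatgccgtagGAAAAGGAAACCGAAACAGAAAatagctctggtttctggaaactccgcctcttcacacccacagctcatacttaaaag
Gbp2: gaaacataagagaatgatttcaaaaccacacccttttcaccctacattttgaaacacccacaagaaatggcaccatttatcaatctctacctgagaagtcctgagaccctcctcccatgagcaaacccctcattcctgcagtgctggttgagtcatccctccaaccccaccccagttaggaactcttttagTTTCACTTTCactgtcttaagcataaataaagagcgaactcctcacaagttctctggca
Cxcl10: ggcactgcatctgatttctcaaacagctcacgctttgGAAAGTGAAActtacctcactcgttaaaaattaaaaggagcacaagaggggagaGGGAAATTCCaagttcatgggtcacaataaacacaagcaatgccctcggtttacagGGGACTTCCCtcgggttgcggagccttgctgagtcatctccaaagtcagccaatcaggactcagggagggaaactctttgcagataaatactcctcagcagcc
Ifit1 holds 2 matches, at 104 to 95 and 85 to 76 bases before the start. Ifit3 holds 2, at 156 to 147 and 122 to 113. Isg15 holds 3 that overlap each other in 1 run, from 78 to 57 bases before the start. Gbp2 holds 1, at 59 to 50. Cxcl10 has its ISRE match at 213 to 204 and 2 NF-kB matches at 159 to 150 and 103 to 94. Among promoters of this length, the ISRE core was in 13.1% of 306 promoters of 255 risen genes, 2.39% of 293 promoters of 215 fallen genes and 2.97% of 10273 promoters of all 8099 tested genes with an entry. It was in 40% of the 30 promoters of risen members of the interferon-stimulated list and 10.1% of the 276 promoters of other risen genes. A match is a string of letters and does not show binding.

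NF-kB matches were less unevenly spread. The NF-kB consensus, searched on both strands, was in 7.52% of the promoters of risen genes, 4.44% of those of fallen genes and 4.33% of those of all tested genes; an NF-kB match overlapped an ISRE match in 1 promoter. The 250 bases before the start of 4 risen genes with a match are printed with the match in capitals, from RefSeq on GRCm38.p6 and on the gene's strand: Il6 at chr5:30012864-30013113 (plus strand), Ebi3 at chr17:55952373-55952622 (plus strand), Nfkbia at chr12:55492648-55492897 (minus strand) and Tnip3 at chr6:65590148-65590397 (plus strand).
Il6: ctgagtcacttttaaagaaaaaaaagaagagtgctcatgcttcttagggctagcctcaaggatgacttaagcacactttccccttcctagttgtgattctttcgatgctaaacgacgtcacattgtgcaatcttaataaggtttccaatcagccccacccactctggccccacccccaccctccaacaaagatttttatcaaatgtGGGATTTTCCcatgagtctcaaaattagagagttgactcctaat
Ebi3: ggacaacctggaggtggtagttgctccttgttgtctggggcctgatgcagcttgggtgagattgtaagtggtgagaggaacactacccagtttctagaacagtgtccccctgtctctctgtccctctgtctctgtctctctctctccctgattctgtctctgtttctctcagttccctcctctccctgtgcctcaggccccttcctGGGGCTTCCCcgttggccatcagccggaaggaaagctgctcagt
Nfkbia: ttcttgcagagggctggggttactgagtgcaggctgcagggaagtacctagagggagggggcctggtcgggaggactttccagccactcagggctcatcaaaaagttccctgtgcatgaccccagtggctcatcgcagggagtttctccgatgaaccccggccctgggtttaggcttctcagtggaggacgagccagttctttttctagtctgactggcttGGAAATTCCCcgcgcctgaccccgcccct
Tnip3: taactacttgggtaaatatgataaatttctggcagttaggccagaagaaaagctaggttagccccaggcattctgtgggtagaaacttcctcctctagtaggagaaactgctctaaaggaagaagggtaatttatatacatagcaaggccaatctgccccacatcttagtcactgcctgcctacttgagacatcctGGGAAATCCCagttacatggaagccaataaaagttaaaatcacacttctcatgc
The match lies 44 to 35 bases before the start in Il6 and in Ebi3, 29 to 20 in Nfkbia and 54 to 45 in Tnip3. For comparison, the E-box CAGCTG, a site type bound by E proteins such as Tcf4, was in 14.7% of the promoters of risen genes, 14% of those of fallen genes and 11.4% of those of all tested genes.

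In the NF-kB pathway, 3 of 20 tested genes rose and none fell, with a median of 1.19. They were an inhibitor, an atypical inhibitor and an adaptor. Nfkbia, the inhibitor IκBα, had 844, 617 and 604 FPKM with CpG-B, against 112, 17.7 and 69.8 FPKM in control (log2 difference 3.68, SE 0.688, limma adjusted p = 0.00457). Nfkbiz, the nuclear protein IκBζ, had 119, 107 and 53.5 FPKM with CpG-B, against 11, 7.83 and 10.6 FPKM in control (log2 difference 3.05, SE 0.549, limma adjusted p = 0.00355). Traf1, an adaptor of TNF receptors, had 68.5, 32.7 and 63.8 FPKM with CpG-B, against 2.15, 0.09 and 5.99 FPKM in control (log2 difference 4.21, SE 0.737, limma adjusted p = 0.00301). The libraries did not overlap in any of the 3, and control 2 was the lowest control for Nfkbia. Nfkb1 itself, the p105 and p50 subunit, was not called, with 5.98, 7.95 and 11.8 FPKM with CpG-B, against 1.82, 7.55 and 15.1 FPKM in control.

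Feedback inhibitors had 8 of 22 tested members higher and none lower, with a median of 2.64; some of them (Nfkbia, Usp18, Il10, Il1rn) also stand in other lists. Tnip3 (chr6:65590398-65634040 on GRCm38.p6), a partner of the NF-kB inhibitor A20, had 621, 435 and 136 FPKM with CpG-B, against 0, 0.14 and 0.14 FPKM in control (log2 difference 8.26, SE 0.797, limma adjusted p = 2.55e-05). All controls were close to 0. Socs1, which blocks JAK kinases, had 5.58, 14.5 and 56.5 FPKM with CpG-B, against 0, 0.04 and 0 FPKM in control (log2 difference 4.15, SE 1.02, limma adjusted p = 0.0251), but the call was lost without CpG-B 2 or 3 or control 1, 2 or 3 (adjusted p between 0.0551 and 0.127). Ido1, the first enzyme of tryptophan breakdown, had 251, 162 and 128 FPKM with CpG-B, against 8.13, 18.1 and 16 FPKM in control (log2 difference 3.61, SE 0.936, limma adjusted p = 0.0348); its groups did not overlap, but the call was lost without any 1 of the 6 libraries (adjusted p between 0.0731 and 0.138). Kynu, an enzyme further down the same pathway, fell, with 0.15, 0.09 and 4.47 FPKM with CpG-B, against 58.5, 174 and 50.3 FPKM in control (log2 difference -5.42, SE 0.709, limma adjusted p = 0.000304). Leaving out CpG-B 2, CpG-B 3, control 2 or control 3 gave 5 calls on this list.

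Genes of maturation rose, with 10 of 19 tested members higher, none lower and a median of 3.54. Cd40, the receptor for T cell help, had 163, 209.7 and 332 FPKM with CpG-B, against 0.11, 0.32 and 0.18 FPKM in control (log2 difference 7.56, SE 0.559, limma adjusted p = 2.89e-06). Cd86, the ligand of CD28, had 88.4, 197 and 80.9 FPKM with CpG-B, against 0.05, 5.86 and 8.84 FPKM in control (log2 difference 4.77, SE 0.737, limma adjusted p = 0.00119). Cd274, the inhibitory ligand PD-L1, had 58.1, 50.8 and 60.5 FPKM with CpG-B, against 4.99, 3.31 and 1.51 FPKM in control (log2 difference 3.83, SE 0.633, limma adjusted p = 0.00207). The groups were well apart in all 3 genes, with Cd40 near 0 in every control library. TNF-family ligands that stimulate T cells also rose. Tnfsf9 (4-1BBL) had 116, 53.8 and 53.1 FPKM with CpG-B, against 0.04, 0.04 and 0 FPKM in control (log2 difference 6.10, SE 1.21, limma adjusted p = 0.00656). Tnfsf4 (OX40L) had 7.48, 22.3 and 9.14 FPKM with CpG-B, against 0.03, 0 and 0 FPKM in control (log2 difference 3.64, SE 0.573, limma adjusted p = 0.00138). Slamf1, a self-binding receptor, had 33.1, 24.4 and 4.02 FPKM with CpG-B, against 0, 0 and 0.03 FPKM in control (log2 difference 4.02, SE 0.702, limma adjusted p = 0.00296), and CpG-B 3 was the lowest of its group. Cd69, an early activation marker that retains cells in tissue, had 248, 518 and 456 FPKM with CpG-B, against 56.6, 1.4 and 40.2 FPKM in control (log2 difference 4.45, SE 0.875, limma adjusted p = 0.00633). Its call was lost without the filter (adjusted p = 0.0715). Cd80, the other ligand of CD28, was listed at 0 in all 6 libraries.

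Of 25 tested genes on the list of plasmacytoid surface receptors, 11 fell with CpG-B and 1 rose, with a median of -2.77. Chosen with earlier results known, the list also holds the enzyme gene Upb1 and the pump subunit gene Atp1b1. Bst2, Ly6c2 and Ccr9, named above as genes of resting plasmacytoid cells, were not called. Siglech (chr7:55768184-55779451 on GRCm38.p6), the endocytic receptor whose values opened the label check, was lower in every CpG-B library (log2 difference -3.87, SE 0.411, limma adjusted p = 4.77e-05). Tyrobp (DAP12), its signalling adaptor, had 1110.4, 2026 and 1668 FPKM with CpG-B, against 10707, 13451 and 15268 FPKM in control (log2 difference -3.06, SE 0.329, limma adjusted p = 5.03e-05). Cd7, an immunoglobulin-family receptor, had 68.6, 150.2 and 139 FPKM with CpG-B, against 3085, 1861 and 2039 FPKM in control (log2 difference -4.32, SE 0.357, limma adjusted p = 5.98e-06). In all 3 genes every CpG-B library was below every control library, with replicate 1 lowest. Upb1, an enzyme of pyrimidine breakdown, had 8.66, 1.83 and 1.49 FPKM with CpG-B, against 144, 137 and 113 FPKM in control (log2 difference -5.01, SE 0.579, limma adjusted p = 0.000115). Smim5, a small membrane protein, had 1.54, 24.4 and 31.1 FPKM with CpG-B, against 558, 274 and 538 FPKM in control (log2 difference -5.10, SE 0.742, limma adjusted p = 0.000723). Havcr1 (TIM-1), a phosphatidylserine receptor, had 0.43, 0.26 and 4.73 FPKM with CpG-B, against 65, 240.2 and 118 FPKM in control (log2 difference -5.83, SE 0.747, limma adjusted p = 0.000267). Replicate 3 of CpG-B held most of what Havcr1 RNA was left. Ramp1, a subunit of the receptor for the neuropeptide CGRP, had 0.22, 4.71 and 1.56 FPKM with CpG-B, against 268, 209 and 188 FPKM in control (log2 difference -6.40, SE 1.04, limma adjusted p = 0.00186). Atp1b1, the beta subunit of the sodium pump, had 6.96, 11.7 and 5.22 FPKM with CpG-B, against 413, 657 and 283 FPKM in control (log2 difference -5.64, SE 0.744, limma adjusted p = 0.000325). In bulk RNA, fewer plasmacytoid cells and less RNA of a gene per cell cannot be told apart.

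Other surface genes of these cells were not called. Bst2 overlapped between the groups, as its values above show, and so did Ly6d, with 3263, 14679 and 12218 FPKM with CpG-B, against 7213, 1445 and 4804 FPKM in control. Ly6c2 had 1333, 5399 and 5115 FPKM with CpG-B, against 4732, 5439 and 10395 FPKM in control (log2 difference -0.95, SE 0.456, limma adjusted p = 0.28) and was not called. Klra17 had 183, 348 and 238 FPKM with CpG-B, against 134, 179.6 and 91.7 FPKM in control (log2 difference 0.92, SE 0.44, limma adjusted p = 0.28) and was not called either. Klk1, a kallikrein gene on the list, had 273, 1496 and 1328 FPKM with CpG-B, against 521, 1519 and 1479 FPKM in control, and its groups overlapped. The 1 member called higher was Gpr171, a G protein-coupled receptor, with 701, 508 and 424 FPKM with CpG-B, against 185, 142 and 105 FPKM in control (log2 difference 1.91, SE 0.479, limma adjusted p = 0.0284), but the call was lost without CpG-B 1, 2 or 3 or control 2 or 3 (adjusted p between 0.0515 and 0.118).

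Of 19 tested plasmacytoid transcription factors, 8 fell and 2 rose, with a median of -1.66. Irf8, needed for dendritic cell development, had 29.1, 69.6 and 196 FPKM with CpG-B, against 381, 487 and 711 FPKM in control (log2 difference -2.77, SE 0.547, limma adjusted p = 0.00646). Bcl11a, needed for plasmacytoid development, had 11.3, 25.4 and 21.2 FPKM with CpG-B, against 104, 112 and 75.8 FPKM in control (log2 difference -2.32, SE 0.464, limma adjusted p = 0.00692). Tsc22d1, a leucine zipper regulator, had 0.39, 0.38 and 7.08 FPKM with CpG-B, against 99.2, 257 and 405 FPKM in control (log2 difference -6.46, SE 0.817, limma adjusted p = 0.000247). The groups did not overlap in any of the 3, and CpG-B 3 was the highest of its group for Irf8 and Tsc22d1. Irf8 missed the threshold without the filter on low values (adjusted p = 0.0557). Tcf4 had 7.55, 21.2 and 13.1 FPKM with CpG-B, against 36.7, 121 and 127 FPKM in control (log2 difference -2.60, SE 0.599, limma adjusted p = 0.0176), but the call was lost without CpG-B 1 or 3 or control 2 or 3 (adjusted p between 0.0514 and 0.0849). Spib, an Ets factor, had 72, 55.8 and 154 FPKM with CpG-B, against 313, 449 and 774 FPKM in control (log2 difference -2.47, SE 0.561, limma adjusted p = 0.0161), and the call was lost without CpG-B 1 or 2 or control 2 or 3 (adjusted p between 0.0504 and 0.0788). Runx2 had 6.83, 14.9 and 5.05 FPKM with CpG-B, against 44, 113 and 90.7 FPKM in control (log2 difference -3.09, SE 0.657, limma adjusted p = 0.0108), and the call was lost without control 2 (adjusted p = 0.058). For Tcf4, Spib and Runx2 all CpG-B libraries were below all control libraries.

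The inhibitors of E proteins Id2 and Id3 moved in opposite directions. Id2, which opposes Tcf4 and favours conventional dendritic cells, had 452, 224 and 171 FPKM with CpG-B, against 47.6, 1.9 and 9.99 FPKM in control (log2 difference 4.49, SE 0.789, limma adjusted p = 0.00306). Id3 had 0.39, 7.91 and 6.77 FPKM with CpG-B, against 655, 269.7 and 209 FPKM in control (log2 difference -6.19, SE 1.2, limma adjusted p = 0.00568). Id2 was highest and Id3 lowest in CpG-B 1. Without the filter the calls of Id3 (adjusted p = 0.0557) and, below, Batf (adjusted p = 0.0695) were lost. Batf3, a factor of conventional dendritic cells, was the other riser, with 167, 41.9 and 16.7 FPKM with CpG-B, against 0, 0.28 and 0 FPKM in control (log2 difference 5.54, SE 1.26, limma adjusted p = 0.0166), but the call was lost without CpG-B 1 or 2 or control 2 or 3 (adjusted p between 0.0505 and 0.0832). Its relative Batf had 894, 1131 and 1425 FPKM with CpG-B, against 88.5, 0.37 and 60.2 FPKM in control (log2 difference 5.85, SE 1.12, limma adjusted p = 0.00525). Leaving out control 2 gave 4 falls on this list, and leaving out CpG-B 1 or control 3 gave 5.

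**Figure D4:**
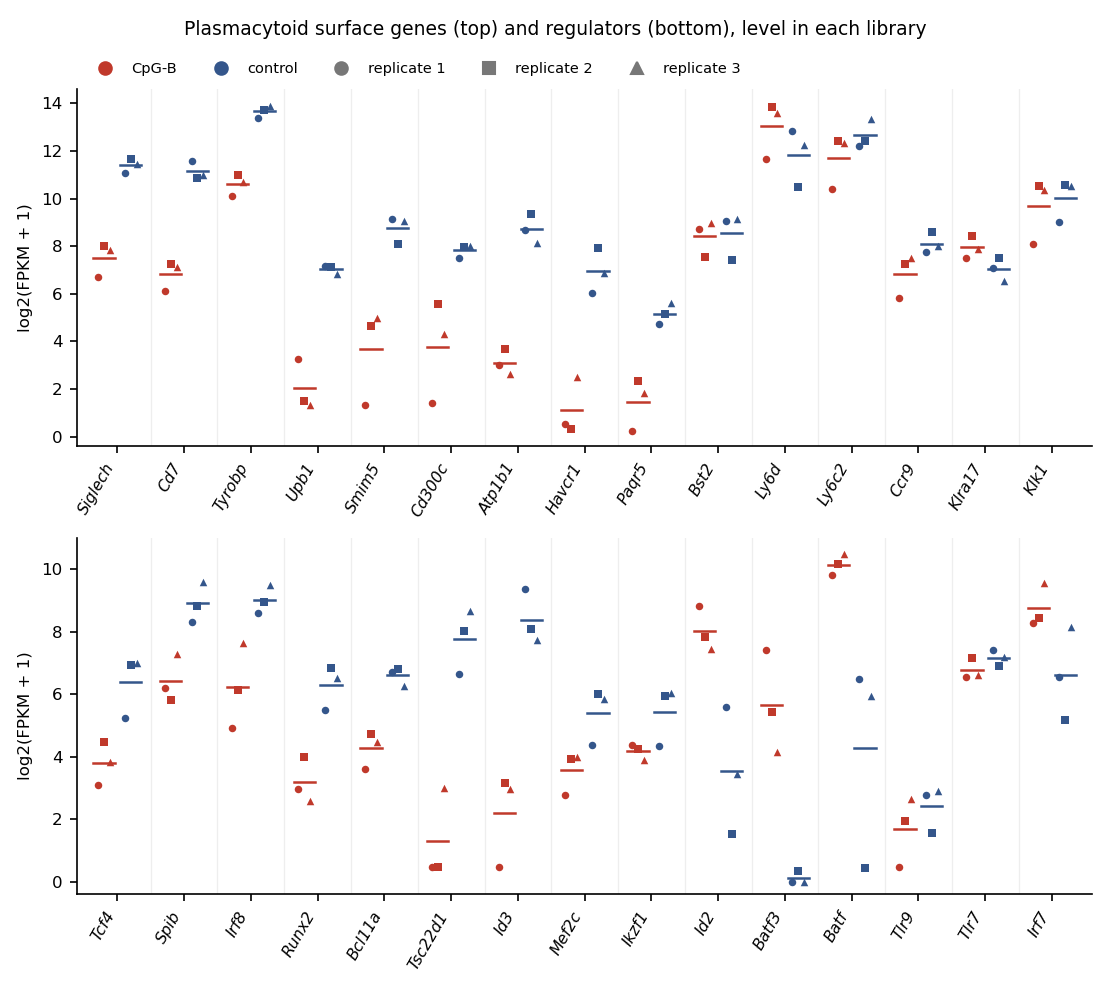
Levels on log2(FPKM + 1) of surface and adaptor genes of plasmacytoid cells (top) and of regulators and TLR genes (bottom); CpG-B libraries are red and stand left of the control libraries in blue, marker shape gives the replicate, and bars are group means. Siglech, Cd7, Tyrobp and Upb1 separate the groups, while Bst2, Ly6d, Tlr7 and Klk1 overlap; Id2 and Id3 move in opposite directions.

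Plasmacytoid cells also carry genes known from B cells; of 18 tested, 5 fell and 1 rose, with a median of -1.41. Fcrla, an intracellular Fc receptor-like protein, had 0.32, 0.62 and 1.04 FPKM with CpG-B, against 119.6, 119 and 54.5 FPKM in control (log2 difference -5.83, SE 0.663, limma adjusted p = 9.94e-05). Dntt, the terminal transferase, had 6.11, 0.44 and 1.48 FPKM with CpG-B, against 81.4, 115 and 119.6 FPKM in control (log2 difference -5.16, SE 0.785, limma adjusted p = 0.00107). Gapt, a transmembrane adaptor, had 0.51, 0.37 and 4.64 FPKM with CpG-B, against 97.1, 256 and 219 FPKM in control (log2 difference -6.29, SE 0.914, limma adjusted p = 0.000723). The little Gapt left with CpG-B was mostly in replicate 3. The riser was Swap70, an exchange factor for Rac, with 45.8, 47.4 and 43.3 FPKM with CpG-B, against 5.33, 7.31 and 1.3 FPKM in control (log2 difference 3.23, SE 0.666, limma adjusted p = 0.00861). Lectins and Siglecs had 4 of 11 tested members lower and none higher. Cd209a, a C-type lectin, had 0.66, 0.26 and 0 FPKM with CpG-B, against 182, 468 and 316 FPKM in control (log2 difference -7.88, SE 0.959, limma adjusted p = 0.000176), the largest fall of all named genes. Leaving out CpG-B 2, control 2 or control 3 gave 2 falls on this list, and leaving out control 1, or all 4 libraries numbered 1, gave 6.

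In the list of TLR9 recognition and signalling, 1 of 25 tested genes rose, 1 fell, and the median was -0.40. Tlr9 had 0.38, 2.89 and 5.25 FPKM with CpG-B, against 5.87, 1.96 and 6.41 FPKM in control, Tlr7 had 92.5, 140.2 and 96.7 FPKM with CpG-B, against 169, 119.6 and 143 FPKM in control, and Myd88 had 54, 36 and 36.9 FPKM with CpG-B, against 20.7, 25.4 and 57.6 FPKM in control. The groups overlapped in all 3 genes, and Tlr9 was low throughout. Slc15a4, an endosomal transporter that TLR9 signalling in plasmacytoid cells requires, fell, with 6.54, 1.15 and 14.3 FPKM with CpG-B, against 57, 76.3 and 68 FPKM in control (log2 difference -3.43, SE 0.696, limma adjusted p = 0.00772). Lgmn, a lysosomal protease, had 411, 387 and 179.9 FPKM with CpG-B, against 44.2, 15 and 63.8 FPKM in control (log2 difference 3.09, SE 0.723, limma adjusted p = 0.0193), but the call was lost without CpG-B 1 or 2 or control 2 (adjusted p between 0.0809 and 0.0936). No member was called higher without the 4 libraries numbered 1.

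Survival genes had 8 of 27 tested members higher and 1 lower, with a median of 0.73. The BCL2 relatives of the A1 family led. Bcl2a1d had 3018, 3784 and 2275 FPKM with CpG-B, against 3.66, 2.57 and 3.18 FPKM in control (log2 difference 9.49, SE 0.693, limma adjusted p = 2.89e-06). Bcl2a1b had 3199, 4244 and 2284 FPKM with CpG-B, against 32.5, 2.48 and 6.98 FPKM in control (log2 difference 8.33, SE 0.839, limma adjusted p = 3.34e-05). Bcl2a1a had 970, 1306 and 638 FPKM with CpG-B, against 4.94, 0.31 and 0.61 FPKM in control (log2 difference 8.65, SE 1.31, limma adjusted p = 0.000997). These genes lie on chromosome 9 and are nearly identical, so how reads were split among them is uncertain, but each was low in all control libraries. Cflar, which blocks caspase 8, had 104, 205 and 120.5 FPKM with CpG-B, against 3.72, 24.1 and 24.7 FPKM in control (log2 difference 3.25, SE 0.619, limma adjusted p = 0.00501). Casp4, the inflammatory caspase that senses lipopolysaccharide, had 327, 348 and 211 FPKM with CpG-B, against 0.07, 0.44 and 17.6 FPKM in control (log2 difference 6.56, SE 0.852, limma adjusted p = 0.000287). Gadd45b, a stress response gene, had 297, 216 and 292 FPKM with CpG-B, against 22.5, 43 and 52.7 FPKM in control (log2 difference 2.81, SE 0.493, limma adjusted p = 0.00306).

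Cytotoxic granule genes had 5 of 15 tested members higher and none lower, with a median of 2.42. Gzmb (granzyme B) had 610.5, 737 and 684 FPKM with CpG-B, against 0, 0.44 and 0.47 FPKM in control (log2 difference 9.04, SE 1.47, limma adjusted p = 0.00184). Its levels were alike in the 3 CpG-B libraries. Serpinb9, the inhibitor of granzyme B, had 271, 210 and 188 FPKM with CpG-B, against 0.04, 11.8 and 3.84 FPKM in control (log2 difference 5.79, SE 0.791, limma adjusted p = 0.000437). Srgn (serglycin), the proteoglycan that packs granules, had 8861, 6948 and 4837 FPKM with CpG-B, against 1597, 1307 and 928 FPKM in control (log2 difference 2.42, SE 0.443, limma adjusted p = 0.00404), a call lost without the filter (adjusted p = 0.0543). Prf1 (perforin) had 86.5, 18.4 and 18.6 FPKM with CpG-B, against 0, 0.03 and 1.24 FPKM in control (log2 difference 4.61, SE 1.01, limma adjusted p = 0.0133), but the call was lost without CpG-B 1 or control 2 (adjusted p between 0.0578 and 0.0716). Because several of these genes are also carried by natural killer cells, the markers of that cell type are given beside them. Of 10 natural killer markers, 3 rose (Ncr1, Klrk1 and Prf1), and the list's summed level was 2500, 5570 and 1150 FPKM in CpG-B libraries, against 1150, 780 and 648 FPKM in control libraries. Ncr1 (NKp46) had 46.3, 89.3 and 88.2 FPKM with CpG-B, against 0, 0.06 and 0.06 FPKM in control (log2 difference 6.12, SE 0.71, limma adjusted p = 0.000116). In 6 of the 10 every CpG-B library was above every control library, against 10.1% of all tested genes. Of these 6, 3 were not called. Gzma (granzyme A) had 627, 4002 and 318 FPKM with CpG-B, against 266, 3.95 and 153 FPKM in control, Nkg7, a granule membrane protein, had 1146, 895 and 443 FPKM with CpG-B, against 416, 0.79 and 94.7 FPKM in control, and Il2rb, a chain of the interleukin 2 and 15 receptors, had 16.3, 18.1 and 13.5 FPKM with CpG-B, against 0.02, 0.1 and 1.63 FPKM in control. Gzma in CpG-B 2 made up most of the highest sum. Klrd1 (CD94) was lower in every CpG-B library without being called, with 241, 242 and 86.7 FPKM with CpG-B, against 389, 724 and 327 FPKM in control. The groups overlapped for the other 3: Klrb1c (NK1.1) had 0.02, 0.11 and 3.64 FPKM with CpG-B, against 0, 0 and 1.61 FPKM in control, Eomes had 11.2, 9.19 and 5.93 FPKM with CpG-B, against 4.05, 0.01 and 7.61 FPKM in control, and Klra8 had 0.08, 0 and 0 FPKM with CpG-B, against 6.42, 5.81 and 0 FPKM in control. No natural killer marker was at 0 in all 6 libraries, and their part in the rise of granule genes was not tested.

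MHC class I genes had 5 of 21 tested members higher and none lower, with a median of 1.25. B2m, the invariant chain of class I molecules, had 32012, 35109.5 and 24792 FPKM with CpG-B, against 13513, 7907 and 10196 FPKM in control (log2 difference 1.56, SE 0.233, limma adjusted p = 0.000931). Psme2, a subunit of the proteasome activator PA28, had 4300.2, 4307 and 4333 FPKM with CpG-B, against 1877, 1186 and 1204 FPKM in control (log2 difference 1.63, SE 0.318, limma adjusted p = 0.00593). The groups did not overlap for either gene, though without the filter on low values neither was called (adjusted p = 0.124 for B2m and 0.0534 for Psme2). Leaving out CpG-B 1 or control 2 gave 2 class I calls, leaving out CpG-B 2 or 3 gave 3, and median-of-ratios scaling gave 8. MHC class II genes had 1 of 16 higher and 1 lower; H2-Aa had 1127, 3945 and 5927 FPKM with CpG-B, against 1362, 2938 and 3679.6 FPKM in control, and its groups overlapped. Ifi30, the lysosomal thiol reductase, was the lower one, with 96.8, 92.5 and 214 FPKM with CpG-B, against 812, 573 and 518 FPKM in control (log2 difference -2.31, SE 0.623, limma adjusted p = 0.0407), but the call was lost without CpG-B 1 or 2 or control 1, 2 or 3 (adjusted p between 0.0792 and 0.143). Median-of-ratios and upper quartile scaling also lost the call of Ifi30 (adjusted p = 0.0647 and 0.0693).

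Proteasome genes had 7 of 38 tested members higher and none lower, with a median of 0.95. Leaving out CpG-B 1 gave 1 call on this list, CpG-B 2 or 3 gave 3, control 2 gave 4 and control 3 gave 2, while median-of-ratios scaling gave 11. Genes of the unfolded protein response and secretion had 5 of 31 higher and none lower. Hspa5 (BiP), the main chaperone of the endoplasmic reticulum, had 654, 1051 and 853 FPKM with CpG-B, against 136, 252 and 269 FPKM in control (log2 difference 1.99, SE 0.334, limma adjusted p = 0.00231). Creld2, another endoplasmic reticulum stress gene, had 318, 439 and 378 FPKM with CpG-B, against 116, 84.5 and 86.1 FPKM in control (log2 difference 1.98, SE 0.349, limma adjusted p = 0.00315). Xbp1, the factor that drives much of this response, was not called, with 79.2, 252 and 366 FPKM with CpG-B, against 541, 356 and 496 FPKM in control (log2 difference -1.23, SE 0.467, limma adjusted p = 0.159). Leaving out CpG-B 2, CpG-B 3 or control 2 gave 2 calls on this list, control 1 or 3 gave 3, and median-of-ratios scaling gave 8.

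Of iron-handling genes, 3 of 11 tested members rose and 1 fell. Hamp (chr7:30942368-30944017 on GRCm38.p6) encodes hepcidin, the hormone that closes the iron exporter ferroportin, and is best known from liver. It had 3514, 911 and 339 FPKM with CpG-B, against 0, 1.19 and 0.5 FPKM in control (log2 difference 9.44, SE 0.87, limma adjusted p = 1.57e-05). Replicate 1 of CpG-B was the highest and replicate 3 the lowest, as for Il6 and Il10. Its near copy Hamp2 had 99.8, 26 and 10.9 FPKM with CpG-B with each control library listed at 0; in the CpG-B libraries its level was 2.84%, 2.86% and 3.2% of that of Hamp, so some of it may be shared reads. Lcn2, a carrier of iron-binding siderophores, had 110.4, 196 and 3.5 FPKM with CpG-B and was listed at 0 in control (limma adjusted p = 0.006), with replicate 3 far below the others. The call was lost without the 4 libraries numbered 1 (adjusted p = 0.0874), without the filter (adjusted p = 0.057) and with only the 6 libraries compared (adjusted p = 0.0504). Lcn2 is also a neutrophil marker, and the only 1 that rose of the 2 tested among 6. S100a9, not tested, had 0, 10.7 and 0 FPKM with CpG-B, against 0, 0 and 9.62 FPKM in control. S100a8 was at 0 in all CpG-B libraries and had 7.47 FPKM in control 3. Mpo had 2.98 FPKM in control 2, and Ltf and Ly6g were under 1 FPKM in all 6 libraries. The summed marker list was 110, 207 and 3.5 FPKM in CpG-B libraries, against 0.07, 2.98 and 17.1 FPKM in control libraries. In CpG-B nearly all of it was Lcn2. Tfrc, the transferrin receptor, was called lower, with 32.1, 10.8 and 13.6 FPKM with CpG-B, against 46.9, 138 and 127 FPKM in control (log2 difference -2.41, SE 0.642, limma adjusted p = 0.0389), but the call was lost without CpG-B 2 or 3 or control 2 or 3 (adjusted p between 0.12 and 0.159). Median-of-ratios and upper quartile scaling also lost the call of Tfrc (adjusted p = 0.0755 and 0.0805).

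Cell cycle genes had 2 of 33 tested members higher and none lower, with a median of 1.34. Ccnd2, a D-type cyclin, had 73.2, 173 and 100.3 FPKM with CpG-B, against 9.59, 0.14 and 3.56 FPKM in control (log2 difference 4.85, SE 0.803, limma adjusted p = 0.0021). Myc had 17.4, 24.8 and 49.4 FPKM with CpG-B with each control library listed at 0 (limma adjusted p = 0.017), but the call was lost without CpG-B 2 or 3 or control 2 or 3 (adjusted p between 0.0533 and 0.0728). Mki67, a marker of dividing cells, had 3.9, 3.79 and 1.44 FPKM with CpG-B, against 4.03, 0.01 and 3.2 FPKM in control, and the groups overlapped. Oxidative phosphorylation had 1 of 76 tested members lower and none higher, with a median of -0.05. Ribosomal protein genes had a median of 0.07, and glycolysis and hypoxia genes one of 0.77 with no member called.

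Markers of other cell types moved in a few places. Of 8 tested markers of conventional dendritic cells, 2 rose (Batf3 and Itgam) and 2 fell (Sirpa and Cd209a). Itgam (CD11b), an integrin of myeloid cells, had 5.2, 8.36 and 1.52 FPKM with CpG-B, against 0.65, 0 and 0.23 FPKM in control (log2 difference 2.06, SE 0.567, limma adjusted p = 0.0456), but the call was lost without CpG-B 1 or 2 or control 1, 2 or 3 (adjusted p between 0.0536 and 0.162). Sirpa, a receptor of conventional dendritic cells and macrophages, fell, with 0.79, 6.17 and 7.81 FPKM with CpG-B, against 54.8, 88.7 and 93.7 FPKM in control (log2 difference -4.01, SE 0.785, limma adjusted p = 0.00606). Cd8a, carried by T cells and by some dendritic cells, rose, with 256, 258 and 308 FPKM with CpG-B, against 41.1, 83.3 and 40.2 FPKM in control (log2 difference 2.38, SE 0.532, limma adjusted p = 0.0148), but the call was lost without CpG-B 3 or control 3 (adjusted p between 0.0568 and 0.0591). Ly6a (Sca-1), on the progenitor list and inducible by interferon, rose, with 4634, 11829 and 9914 FPKM with CpG-B, against 463, 82.9 and 1949 FPKM in control (log2 difference 4.27, SE 0.753, limma adjusted p = 0.00314), a call lost without the filter (adjusted p = 0.0555). Summed markers of mast cells and basophils were 1.6, 0.51 and 108 FPKM in CpG-B libraries, against 0.04, 22.5 and 1.14 FPKM in control libraries, so that CpG-B 3 and control 2 stood apart. Monocyte and macrophage markers summed to 177, 293 and 524 FPKM in CpG-B libraries, against 807, 641 and 542 FPKM in control libraries, most of it Cd68, with 167, 290.2 and 498 FPKM with CpG-B, against 777, 636 and 526 FPKM in control. B cell and plasma cell markers summed to 399, 581 and 572 FPKM in CpG-B libraries, against 710, 501 and 457 FPKM in control libraries. Most of it was Mzb1, and Pax5, Vpreb3 and Jchain were at 0 in all 6 libraries. Cd79a had 0, 1.49 and 2.15 FPKM with CpG-B, against 72.9, 0 and 8.03 FPKM in control. Sdc1 had 0.08, 0.03 and 1.72 FPKM with CpG-B, against 0.18, 13.5 and 15.5 FPKM in control. Neither gene was called. The part of these cells in the results was not tested.

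CpG-B was then set directly against the other 2 classes at the same dose and time, in the same limma fit. Of the tested genes, 283 (2.43%) differed from CpG-A, 168 (1.44%) being higher and 115 (0.988%) lower with CpG-B. From CpG-C, 157 (1.35%) differed, 91 (0.782%) being higher and 66 (0.567%) lower with CpG-B. These counts rest heavily on single libraries and on the shared estimate of spread. Leaving out 1 library gave 120 to 218 calls against CpG-A: 120 when it was CpG-B 1, 137 for CpG-A 2, 160 for CpG-A 3 and 173 for CpG-A 1. Against CpG-C the range was 37 to 147: 37 when it was CpG-C 2, 72 for CpG-C 3 and 78 for CpG-B 1. Fitting only the 6 libraries compared gave 72 and 22 calls.

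Among the named genes, Hamp, Il1rn, Tnip3 and Ifitm1 were higher with CpG-B than with either other class. Hamp had 3514, 911 and 339 FPKM with CpG-B, 0, 1.01 and 0.59 FPKM with CpG-A and 0.63, 0.75 and 0 FPKM with CpG-C; its log2 difference was 9.45 from CpG-A (SE 0.87, limma adjusted p = 0.000206) and 9.50 from CpG-C (SE 0.87, limma adjusted p = 0.000203). Il1rn had 0, 0.17 and 1.84 FPKM with CpG-A and 6.03, 0.19 and 0.24 FPKM with CpG-C; CpG-B stood 8.78 above CpG-A (SE 0.851, limma adjusted p = 0.000206) and 8.23 above CpG-C on the log2 scale (SE 0.851, limma adjusted p = 0.000248). Tnip3 had 0, 0.22 and 1.36 FPKM with CpG-A and 0.07, 0.07 and 0.13 FPKM with CpG-C, with log2 differences of 7.88 (SE 0.797, limma adjusted p = 0.000206) from CpG-A and 8.26 (SE 0.797, limma adjusted p = 0.000204) from CpG-C. In all 3 genes the CpG-A and CpG-C libraries lay near the control level, and the 3 CpG-B libraries lay far above all of them. Ifitm1, an interferon-stimulated gene, had 395, 719 and 1033 FPKM with CpG-B, 0, 0.07 and 43.3 FPKM with CpG-A and 0.15, 0.08 and 0.49 FPKM with CpG-C, against 0.57, 3.7 and 0 FPKM in control. CpG-B was called higher than CpG-A (limma adjusted p = 0.00427) and CpG-C (limma adjusted p = 0.0024), though not with a pseudocount of 0.01 (adjusted p = 0.0802 and 0.0945) and, for CpG-A, not without the 4 libraries numbered 1 (adjusted p = 0.0576). Replicate 3 of CpG-A was well above the other libraries that lacked CpG-B. Il10 had 0, 0.03 and 0.03 FPKM with CpG-A and 0, 0 and 0 FPKM with CpG-C, and CpG-B was called higher than both (limma adjusted p = 0.00108 and 0.0024); with only the 6 libraries compared, the call against CpG-C was lost (adjusted p = 0.0548).

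Emilin2, an extracellular matrix glycoprotein, had 212, 92.1 and 96.7 FPKM with CpG-B, 0.03, 0.17 and 0 FPKM with CpG-A and 0.06, 0.03 and 0.06 FPKM with CpG-C, against 0, 0.06 and 0 FPKM in control; the log2 difference from CpG-C was 6.89 (SE 0.7, limma adjusted p = 0.000248). Pdzk1ip1, a membrane-associated protein, had 307, 42.4 and 65 FPKM with CpG-B, 0, 0 and 3.21 FPKM with CpG-A and 0.06, 0 and 0.11 FPKM with CpG-C, and was listed at 0 in control. It too was called higher than CpG-C (limma adjusted p = 0.0025), though not with a pseudocount of 0.01 (adjusted p = 0.0588). Wfdc21 had 351, 767 and 341 FPKM with CpG-B, 0, 9.12 and 0.13 FPKM with CpG-A and 49.6, 24 and 176 FPKM with CpG-C, against 0, 0.52 and 0 FPKM in control, with a called log2 difference of 7.65 from CpG-A (SE 0.91, limma adjusted p = 0.00068) and an uncalled one of 2.90 from CpG-C (SE 0.91, limma adjusted p = 0.173). Ifitm2 had 319.6, 315 and 314 FPKM with CpG-B, 0.09, 0.23 and 0 FPKM with CpG-A and 33.6, 0.32 and 28 FPKM with CpG-C, against 116, 25.1 and 46.3 FPKM in control, and was 8.17 above CpG-A on the log2 scale (SE 0.99, limma adjusted p = 0.00068). Control stood between CpG-B and CpG-A there, and CpG-B against control was not called.

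**Figure D5:**
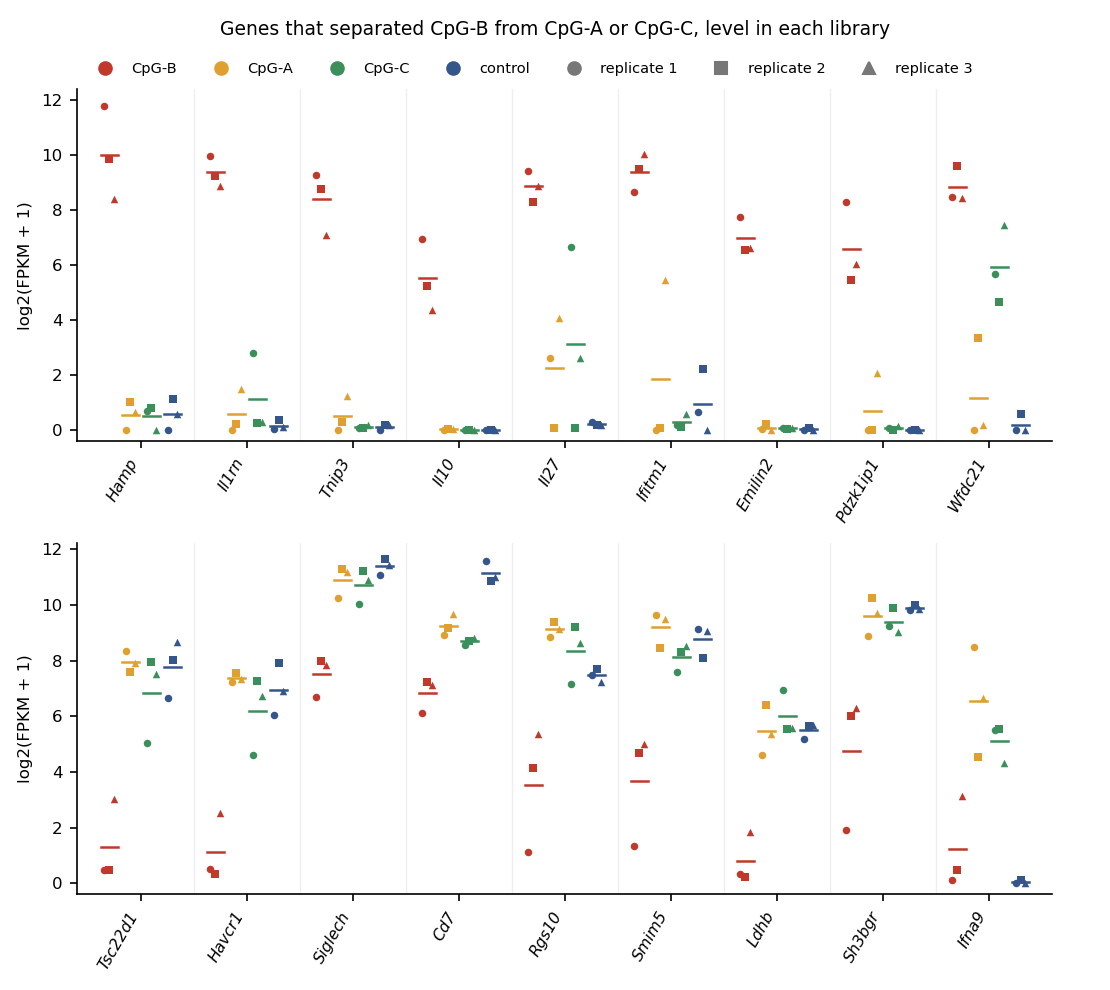
Levels on log2(FPKM + 1) of genes higher (top) or lower (bottom) with CpG-B than with CpG-A or CpG-C; the groups run CpG-B (red), CpG-A (orange), CpG-C (green) and control (blue) from left to right, marker shape gives the replicate, and bars are group means. Hamp, Il1rn, Tnip3 and Il10 are high with CpG-B alone among the 4 groups, and Siglech, Tsc22d1 and Ldhb are low with CpG-B while CpG-A and CpG-C lie near control.

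Several plasmacytoid genes were lower with CpG-B than with the other classes. Of the 25 surface genes, 11 were called lower than with CpG-A and 8 lower than with CpG-C. Of the 19 transcription factors, 5 and 4 were. Over all tested genes 0.988% were lower than with CpG-A and 0.567% lower than with CpG-C. Both lists were chosen with earlier results known, and these comparisons share the CpG-B libraries with that against control. Siglech had 104, 253 and 230.1 FPKM with CpG-B, 1211, 2522 and 2319 FPKM with CpG-A and 1041, 2402 and 1922 FPKM with CpG-C; its log2 difference was -3.39 from CpG-A (SE 0.411, limma adjusted p = 0.00068) and -3.20 from CpG-C (SE 0.411, limma adjusted p = 0.00216). Cd7 had 68.6, 150.2 and 139 FPKM with CpG-B, 484, 574 and 828 FPKM with CpG-A and 382, 419.8 and 453 FPKM with CpG-C, so that CpG-A and CpG-C lay between CpG-B and control. Tsc22d1 had 0.39, 0.38 and 7.08 FPKM with CpG-B, 328, 194 and 242 FPKM with CpG-A and 31.6, 249 and 181 FPKM with CpG-C; its log2 difference was -6.65 from CpG-A (SE 0.817, limma adjusted p = 0.00068) and -5.51 from CpG-C (SE 0.817, limma adjusted p = 0.00367). Havcr1 had 148, 185 and 163 FPKM with CpG-A and 23.4, 154 and 104 FPKM with CpG-C, against the low CpG-B values given above, with log2 differences of -6.25 from CpG-A (SE 0.747, limma adjusted p = 0.00068) and -5.08 from CpG-C (SE 0.747, limma adjusted p = 0.00367). With only the 6 libraries compared, Tsc22d1 and Havcr1 were no longer called against CpG-C (adjusted p = 0.0813 and 0.0819). The log2 difference of Smim5 from CpG-A was -5.52 (SE 0.742, limma adjusted p = 0.00124).

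Other genes were lower with CpG-B than with the other classes without being plasmacytoid receptors or factors. Rgs10, a brake on G protein signalling, had 1.16, 16.7 and 40.3 FPKM with CpG-B, 461, 677 and 561 FPKM with CpG-A and 142, 597 and 393 FPKM with CpG-C, against 179, 209 and 149.5 FPKM in control, with log2 differences of -5.59 from CpG-A (SE 0.803, limma adjusted p = 0.00205) and -4.79 from CpG-C (SE 0.803, limma adjusted p = 0.00811); the second was a call lost without CpG-C 2, adjusted p = 0.0576. Ldhb, a lactate dehydrogenase subunit, had 0.27, 0.16 and 2.59 FPKM with CpG-B, 23.2, 84.5 and 40.1 FPKM with CpG-A and 123, 45.9 and 46.9 FPKM with CpG-C, against 35.5, 48.8 and 50 FPKM in control. The log2 difference of Ldhb from CpG-C was -5.23 (SE 0.67, limma adjusted p = 0.00216). Sh3bgr had 2.77, 63.2 and 77.3 FPKM with CpG-B, 475, 1209 and 846 FPKM with CpG-A and 603, 945 and 516 FPKM with CpG-C, against 909, 1026 and 931 FPKM in control, and its difference from CpG-C was -4.64 (SE 0.82, limma adjusted p = 0.0112; a call lost without CpG-C 2, adjusted p = 0.0706). Clec10a, a lectin, had 0.27, 0.2 and 0 FPKM with CpG-B, 77.5, 38 and 176 FPKM with CpG-A and 18.4, 147 and 148 FPKM with CpG-C, against 0, 48 and 70.4 FPKM in control; it was called lower than CpG-A (limma adjusted p = 0.0215; a call lost without CpG-A 1 or 3 or CpG-B 1, 2 or 3, adjusted p between 0.0572 and 0.0848) and lower than CpG-C (limma adjusted p = 0.0322; a call lost without CpG-B 1, 2 or 3 or CpG-C 2 or 3, adjusted p between 0.0808 and 0.168). Ifna9, an interferon-alpha gene, had 0.09, 0.39 and 7.84 FPKM with CpG-B, 357, 22.5 and 99.1 FPKM with CpG-A and 44.1, 45.3 and 18.8 FPKM with CpG-C, against 0, 0.09 and 0 FPKM in control. The log2 difference of Ifna9 from CpG-A was -5.31 (SE 1.01, limma adjusted p = 0.0117), a call lost without CpG-A 1 or CpG-B 1 (adjusted p between 0.0539 and 0.064) and without the 4 libraries numbered 1 (adjusted p = 0.134). With only the 6 libraries compared, that call (adjusted p = 0.0801) and those against CpG-C of Rgs10 (0.114), Sh3bgr (0.125) and Clec10a (0.0509) were lost. Without the filter they were lost too (0.0621 for Ifna9, 0.0773 for Rgs10, 0.11 for Sh3bgr and 0.199 for Clec10a).

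Some of the inflammatory genes that rose most against control were also called higher than with CpG-A, and others were not; the comparisons share the CpG-B libraries. Cxcl10, Ccl5, Ebi3, Il6 and Ifit3 were called against neither class. Of the 50 interferon-stimulated genes, 3 were called higher than with CpG-A and 2 higher than with CpG-C, and none lower. Over all tested genes 1.44% were higher than with CpG-A and 0.782% higher than with CpG-C. Ifit3 had 299, 213 and 488 FPKM with CpG-A and 484, 214 and 402 FPKM with CpG-C, all far above control. Its log2 difference was 0.85 from CpG-A (95% interval -0.16 to 1.86) and 0.71 from CpG-C (95% interval -0.30 to 1.72), and neither was called. Ccl3 had 7023, 671 and 508 FPKM with CpG-A and 17333, 3938 and 7318 FPKM with CpG-C; CpG-B was called higher than CpG-A (log2 difference 3.87, SE 0.793, limma adjusted p = 0.0185; a call lost without CpG-A 2 or 3 or CpG-B 1, adjusted p between 0.076 and 0.103), while the difference from CpG-C was 1.30 and was not called (SE 0.793, limma adjusted p = 0.589). Ccl4 had 8959.9, 1917 and 1133 FPKM with CpG-A and 25406, 7483 and 13972 FPKM with CpG-C; CpG-B was called higher than CpG-A (log2 difference 2.95, SE 0.636, limma adjusted p = 0.0237; a call lost without CpG-A 2 or 3 or CpG-B 1 or 2, adjusted p between 0.0851 and 0.121), while the difference from CpG-C was 0.59 with a 95% interval of -0.77 to 1.95. With only the 6 libraries compared, neither Ccl3 (adjusted p = 0.104) nor Ccl4 (adjusted p = 0.112) was called against CpG-A. Il6 had 17.7, 25.9 and 18.4 FPKM with CpG-A and 199, 0.32 and 11.2 FPKM with CpG-C; it was called against neither CpG-A (log2 difference 4.37, limma adjusted p = 0.0831) nor CpG-C (log2 difference 4.91, limma adjusted p = 0.0711), and 1 CpG-C library, replicate 1, held most of the CpG-C level. Without that library the difference of Il6 from CpG-C was called (adjusted p = 0.00311), and with only the 6 libraries compared so was that from CpG-A (adjusted p = 0.0105). With library weights Il6 was called against both CpG-A (adjusted p = 0.0317) and CpG-C (adjusted p = 0.00502). Without the 4 libraries numbered 1 it was called against CpG-C (adjusted p = 0.0251). Il27 had 5.08, 0.07 and 15.7 FPKM with CpG-A and 98.6, 0.07 and 5.1 FPKM with CpG-C. It was called against CpG-A (limma adjusted p = 0.0142), a call lost without CpG-A 2 or CpG-B 1 (adjusted p between 0.0705 and 0.0829). It was also called against CpG-C (limma adjusted p = 0.0441), a call lost without CpG-B 1, 2 or 3 or CpG-C 2 or 3 (adjusted p between 0.0946 and 0.197). With only the 6 libraries compared, the call against CpG-C was lost as well (adjusted p = 0.145).

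The authors' deposited table gave a q-value under 0.05 for 11158 of the 11627 tested genes that had one, and for all 669 genes called here, with the same sign of change. The test behind those q-values is not given in the sources used here.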

How the data were processed

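RNA was sequenced from 12 libraries in 4 groups of 3. Expression values are FPKM as deposited, 1 column per library; no column of per-sample values was unmapped. Tools named in the submitters' processing notes, with no role or order, are RSEM 1.2.8, Bowtie2 2.2.5, HISAT, GATK and StringTie; the build named there is mm10. The authors' log2 ratios, p-values and q-values, per the file headers, were only set beside the calls made here. The deposited transcript lengths, per the file headers, served only to estimate depth. Of 21574 lines 1 was broken and left out, and 24 symbols turned into dates were restored from gene numbers. Counting intervals were not computed, since the files give no counts.

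Log2(FPKM + 1) of genes with at least 1 FPKM in 3 or more of 12 libraries was fitted in limma 3.58.1 (R 4.3.3) with 1 mean per group, over all libraries so that the groups share 1 estimate of spread (8 residual and 6.81 prior degrees of freedom), and Benjamini-Hochberg adjustment over 11641 genes, of which 9948 were known and 1693 named only by the sequencing provider. The procedure was tested on simulated data. An exact permutation test of 3 libraries against 3 was not used for single genes, since it cannot reach the threshold. Named genes were the 15 largest called rises and falls against control with no overlap of libraries and a mean of 5 FPKM or more in the higher group (predicted genes and clone names excluded); members of gene lists, called members with the largest differences preferred; a fixed set of known genes; and the 6 largest differences in each direction against CpG-A and CpG-C. The gene lists, the genes and the comparison were chosen with earlier results of these data known. Promoters of 8099 of the 9948 known tested genes were matched by gene number in RefSeq (GRCm38.p6). Alternatives changed the pseudocount, the filter, the scaling, the library weights, the replicate block and the libraries fitted.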

Additional observations from a re-analysis of the deposited data

How the results depend on the processing

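Against control, the number of called genes, 669 as reported, was 1063 with library weights, 440 without the filter on low values, and 389 to 577 when 1 library was left out; the other settings gave 490 to 886. Against CpG-A, where 283 were called, it was 509 with library weights, 157 without the filter, 72 with only the 6 libraries compared, 150 with a pseudocount of 0.01, 434 with the replicate block, and 120 to 218 with 1 library left out. Against CpG-C, where 157 were called, it was 587 with library weights, 92 without the filter, 22 with only the 6 libraries compared, 90 with a pseudocount of 0.01, 276 with the replicate block, and 37 to 147 with 1 library left out. The cause was not tested, except that fewer libraries leave fewer degrees of freedom. Of 90 genes named with a call against control, 64 kept it under all 16 settings and none changed sign; 11 of 17 against CpG-A and 6 of 15 against CpG-C did so. The share of higher calls was 56.8% against control as reported and lay between 50.3% with library weights and 71.3% with upper quartile scaling.

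The labels give each group the replicate numbers 1 to 3 without saying that a number marks a shared mouse or day. The deviations of same-numbered CpG-B and control libraries from their group means correlated at 0.103, 0.0872 and 0.136. These were above those of every pair with different numbers (-0.102 to -0.00656). The labels state no pairing and the second value is under 0.1, so the reported fit has no block. A shared effect of replicate number is not excluded by this. In all 4 groups the mean correlation within the group was lowest for replicate 1 and highest for replicate 3. Library weights ran from 0.426 to 0.866 for replicate 1 and from 1.44 to 2.28 for replicate 3. With the replicate number as a block, 886 genes were called against control in place of 669, 470 higher and 416 lower. The rough depth of 23000000 to 26000000 fragments per library and the 3 libraries per group limit what can be called: log2 differences had a median SE of 0.841, so small ones could not be detected.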
